A study of Mus musculus with 10 samples.

Results

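Transcripts of peroxins, the proteins that build peroxisomes, and of peroxisomal enzymes and transporters were compared between injured and sham-operated mouse kidneys. The 34 genes were taken by symbol, matched through the Ensembl identifier, from a table of 55359 genes, and comprise 13 biogenesis factors and 21 enzymes and transporters. All 34 symbols matched exactly 1 gene. Kidney RNA of male mice was sequenced in 10 libraries. Of these, 5 came from kidneys exposed to 30 min of ischaemia and then 24 h of reperfusion (IRI), and 5 came from sham-operated mice. The series is concerned with methionine in the diet and the resilience of the kidney to this injury, but the labels give neither the strain, age or diet of the mice nor the time between sham surgery and sampling. Whether the libraries are from separate mice is not stated either, and the p-values then refer only to variation among the libraries, some of which may be technical.

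Peroxisomes are organelles bounded by a single membrane that shorten very long and branched fatty acids, oxidise D-amino acids and hydroxy acids, start the synthesis of ether lipids and break down the hydrogen peroxide that their oxidases release. Their matrix proteins are made in the cytosol and imported folded by receptors that recognise a short C-terminal or N-terminal signal, while peroxins insert the membrane proteins, dock and recycle the receptors and divide the organelle. In the kidney, peroxisomes are most abundant in the proximal tubule, and inherited loss of peroxins causes Zellweger spectrum disorders in humans.

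Library totals were 13147899 to 17307039 counts in the IRI libraries and 13199234 to 18603272 counts in the sham libraries. The lowest count of any of the 34 genes in any library was 52, for Pex11g. All 8 tubular injury markers listed, with Krt20, Lcn2, Havcr1 and Sox9 the most changed, were higher in IRI libraries (edgeR adjusted p of 2.88e-08 to 0.000876). Over all genes tested, 34.5% were higher at an edgeR adjusted p under 0.05. Krt20, Havcr1 and Sox9 were under 1 FPKM (counts scaled by exonic length and library total) in every sham library. With a filter of 1 FPKM in 5 or more libraries, they could be tested only by being higher in IRI. Markers of the proximal tubule, thick ascending limb, distal tubule and collecting duct were detected in both groups, as the kidney label calls for. IRI replicate 1 stood apart in the summed level of proximal tubule markers, at 1061 FPKM. The sums were 404, 424, 187 and 222 FPKM in IRI replicates 2 to 5 and 2637 to 3114 FPKM in sham libraries. Slc34a1 alone gave 584 FPKM of the sum in IRI replicate 1. Most listed proximal tubule markers were highest in that IRI library, but Slc22a7 (1.99 FPKM) and Slc22a13 (0.28 FPKM) were lowest there.

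Of the 34 genes, 33 were lower in IRI kidneys and 1, Eci2, was not called by edgeR's quasi-likelihood test at an adjusted p under 0.05. Over all 13324 genes tested, 66.9% were called, 32.4% lower and 34.5% higher. The 33 lower genes comprised all 13 biogenesis factors and 20 of the 21 enzymes and transporters. Sizes differed between these groups: the median log2 fold change was -0.56 over biogenesis factors, -2.12 over enzymes and transporters and 0.05 over all genes tested. A log2 fold change below -1 together with a call was found in 4 of 13 biogenesis factors and 17 of 21 enzymes and transporters, against 15.0% of all genes tested. FPKM values of the groups did not overlap, with every IRI library below every sham library, in 7 of 13 biogenesis factors and 17 of 21 enzymes and transporters, against 18.6% of all genes tested. No gene of the 34 had every IRI library above every sham library, as 36.7% of all genes tested did. The difference between biogenesis factors and enzymes is given by these counts and medians and was not tested as a score. The 34 genes were chosen with earlier results of these data known, and the comparison with all genes tested does not account for that choice.

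Scaling mattered for the biogenesis factors. With library totals in place of TMM factors, log2 fold changes were higher by a median of 0.25 over all genes tested, 66.7% of calls were in the higher direction (51.6% with TMM), and 7 of 13 biogenesis factors and 19 of 21 enzymes and transporters were called lower, against 23.6% of all genes tested, while 47.4% of all genes tested and none of the 34 were called higher. Those 7 biogenesis factors were Pex19, Pex7, Pex13, Pex2, Pex10, Pex6 and Pex11g. Pex3, Pex16, Pex5, Pex14, Pex26 and Pex11a, and among the enzymes Hsd17b4, lost their call under library totals while keeping a negative log2 fold change. Because FPKM rests on library totals whereas the fold changes below rest on TMM factors, the ratio of a gene's FPKM means, IRI over sham, is higher than its fold change implies.

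**Figure D1:**
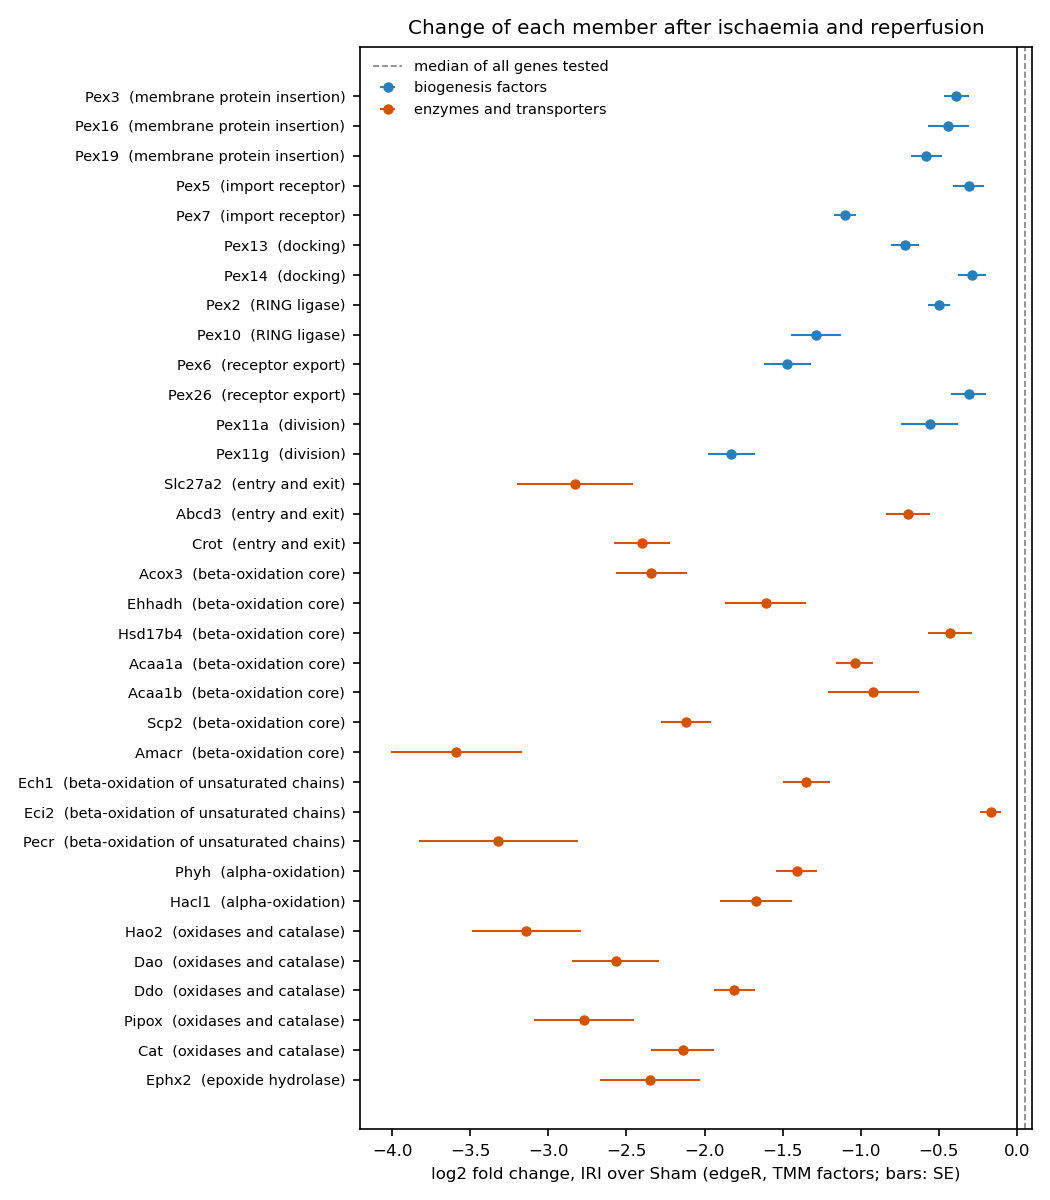
Log2 fold change of each of the 34 genes, IRI over sham (x axis, edgeR with TMM factors; bars are standard errors), grouped by role down the y axis. Biogenesis factors lie between -1.83 and -0.29 and enzymes and transporters between -3.59 and -0.17, all left of the dashed median of all genes tested at 0.05.

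Among the 3 peroxins that insert membrane proteins, all were lower by small amounts. Pex19, the cytosolic chaperone that carries newly made membrane proteins to the organelle, had 22.2, 19.96, 22.8, 18.4 and 20.2 FPKM in IRI replicates 1 to 5, against 28.9, 26.3, 26.1, 24.8 and 24.6 FPKM in sham replicates 1 to 5. No IRI library reached the lowest sham library, and Pex19 fell by 0.58 ± 0.10 (log2 fold change ± SE, edgeR adjusted p = 0.000193, lower in 5 of 5 IRI libraries). Pex3, its docking partner in the membrane, averaged 6.02 ± 0.512 FPKM in IRI and 6.63 ± 0.478 FPKM in sham libraries (SD, n = 5 each), with overlapping groups and a log2 fold change of -0.39 ± 0.08 (edgeR adjusted p = 0.00102). Pex16, which helps to place Pex3 in the membrane, averaged 18.0 ± 3.07 FPKM in IRI and 20.6 ± 2.43 FPKM in sham, also with overlap (log2 fold change -0.44 ± 0.13, edgeR adjusted p = 0.0110).

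The import receptors differed in response. Pex7, the receptor for the N-terminal targeting signal, had 3.39, 3.30, 3.34, 3.48 and 3.21 FPKM in IRI replicates 1 to 5, against 6.23, 6.11, 5.84, 5.88 and 6.18 FPKM in sham replicates 1 to 5. These were the tightest groups among the 34 genes in IRI, with a coefficient of variation of 3.01% in IRI and 2.93% in sham, and they did not overlap (log2 fold change -1.10 ± 0.07, edgeR adjusted p = 2.41e-07). Pex5, the receptor for the C-terminal signal that most matrix enzymes carry, averaged 21.5 ± 2.19 FPKM in IRI and 22.6 ± 0.915 FPKM in sham. Its groups overlapped, and the log2 fold change of -0.31 ± 0.10 (edgeR adjusted p = 0.0176) was called with TMM factors but not with library totals.

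Of the docking proteins in the peroxisomal membrane, Pex13 had 7.00, 7.65, 7.63, 6.27 and 6.50 FPKM in IRI replicates 1 to 5, against 9.25, 10.1, 8.96, 10.2 and 10.1 FPKM in sham replicates 1 to 5. All IRI libraries lay below all sham libraries (log2 fold change -0.72 ± 0.09, edgeR adjusted p = 3.37e-05). Its partner Pex14 averaged 6.63 ± 0.966 FPKM in IRI and 6.80 ± 0.200 FPKM in sham, the smallest called change of the 34 genes (-0.29 ± 0.09, edgeR adjusted p = 0.0159).

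The RING ubiquitin ligases Pex2 and Pex10 mark the import receptor so that it can be withdrawn from the membrane. Pex10 had 2.61, 2.03, 2.86, 2.05 and 1.98 FPKM in IRI replicates 1 to 5, against 4.71, 5.20, 3.94, 5.08 and 4.92 FPKM in sham replicates 1 to 5 (log2 fold change -1.29 ± 0.16, edgeR adjusted p = 1.81e-05). Pex2 averaged 26.2 ± 2.20 FPKM in IRI and 31.0 ± 1.63 FPKM in sham (log2 fold change -0.50 ± 0.07, edgeR adjusted p = 9.21e-05). Neither gene had an IRI library at a sham level.

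Withdrawal of the receptor is driven by an ATPase complex that contains Pex6 and that Pex26 anchors in the membrane. Pex6 had 9.73, 7.47, 11, 7.93 and 6.98 FPKM in IRI replicates 1 to 5, against 19.2, 19.2, 17.8, 22.4 and 22.1 FPKM in sham replicates 1 to 5, so that the groups were well separated (log2 fold change -1.47 ± 0.15, edgeR adjusted p = 4.03e-06). Pex26 averaged 3.68 ± 0.223 FPKM in IRI and 3.83 ± 0.517 FPKM in sham, with overlap. Its log2 fold change of -0.31 ± 0.11 (edgeR adjusted p = 0.0274) was the least stable call of the set: it was no longer called without sham replicate 1 (-0.21, edgeR adjusted p = 0.10) or 2 (-0.27, edgeR adjusted p = 0.0769) or without IRI replicate 4 (-0.27, edgeR adjusted p = 0.0682) or 5 (-0.29, edgeR adjusted p = 0.0573).

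Peroxins of the Pex11 family elongate and divide peroxisomes, and Pex11a is known in rodents as a gene that PPAR-alpha agonists induce. Promoters of both members were taken from RefSeq (build GRCm38.p6), each running from 250 bases before the annotated gene start through its first 30 bases. They are printed because these paralogs differed in response. The hexamer AGGTCA, the core that PPAR and other nuclear receptors bind, was searched on both strands and is in capitals where it was found.
Pex11g, chr8:3467619-3467898, minus strand: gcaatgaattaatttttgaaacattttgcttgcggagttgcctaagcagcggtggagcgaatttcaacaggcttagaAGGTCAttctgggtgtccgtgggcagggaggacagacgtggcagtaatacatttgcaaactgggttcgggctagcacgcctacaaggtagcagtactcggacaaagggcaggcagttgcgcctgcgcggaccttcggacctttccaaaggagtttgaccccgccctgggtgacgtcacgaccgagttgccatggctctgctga
Pex11a, chr7:79743102-79743381, minus strand: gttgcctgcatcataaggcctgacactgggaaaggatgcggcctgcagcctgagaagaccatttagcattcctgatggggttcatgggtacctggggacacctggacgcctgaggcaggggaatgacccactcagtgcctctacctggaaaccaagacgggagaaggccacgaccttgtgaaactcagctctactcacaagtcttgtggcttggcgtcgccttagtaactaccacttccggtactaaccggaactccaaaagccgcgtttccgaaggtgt

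The Pex11g window held the hexamer once, starting at position -173 relative to the first base of the gene, and the Pex11a window did not hold these letters. A part of the hexamer in the response of these genes was not tested. Pex11g had 1.48, 1.16, 1.92, 1.73 and 1.64 FPKM in IRI replicates 1 to 5, against 5.41, 4.29, 4.30, 4.77 and 4.99 FPKM in sham replicates 1 to 5. The groups were far apart, and the log2 fold change of -1.83 ± 0.15 (edgeR adjusted p = 7.90e-07) was the largest decrease among the biogenesis factors. Pex11a had 14.5, 20.8, 24.8, 15.0 and 11.4 FPKM in IRI replicates 1 to 5, against 20.8, 22.0, 19.2, 21.1 and 24.1 FPKM in sham replicates 1 to 5. IRI replicate 3 exceeded every sham library, while IRI replicates 1, 4 and 5 lay below them all, and the log2 fold change was -0.56 ± 0.18 (edgeR adjusted p = 0.0166). In the deposited coordinates (GRCm39), Pex11a lies on chromosome 7 from 79385705 to 79392879 and Pex11g on chromosome 8 from 3507105 to 3517680.

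**Figure D2:**
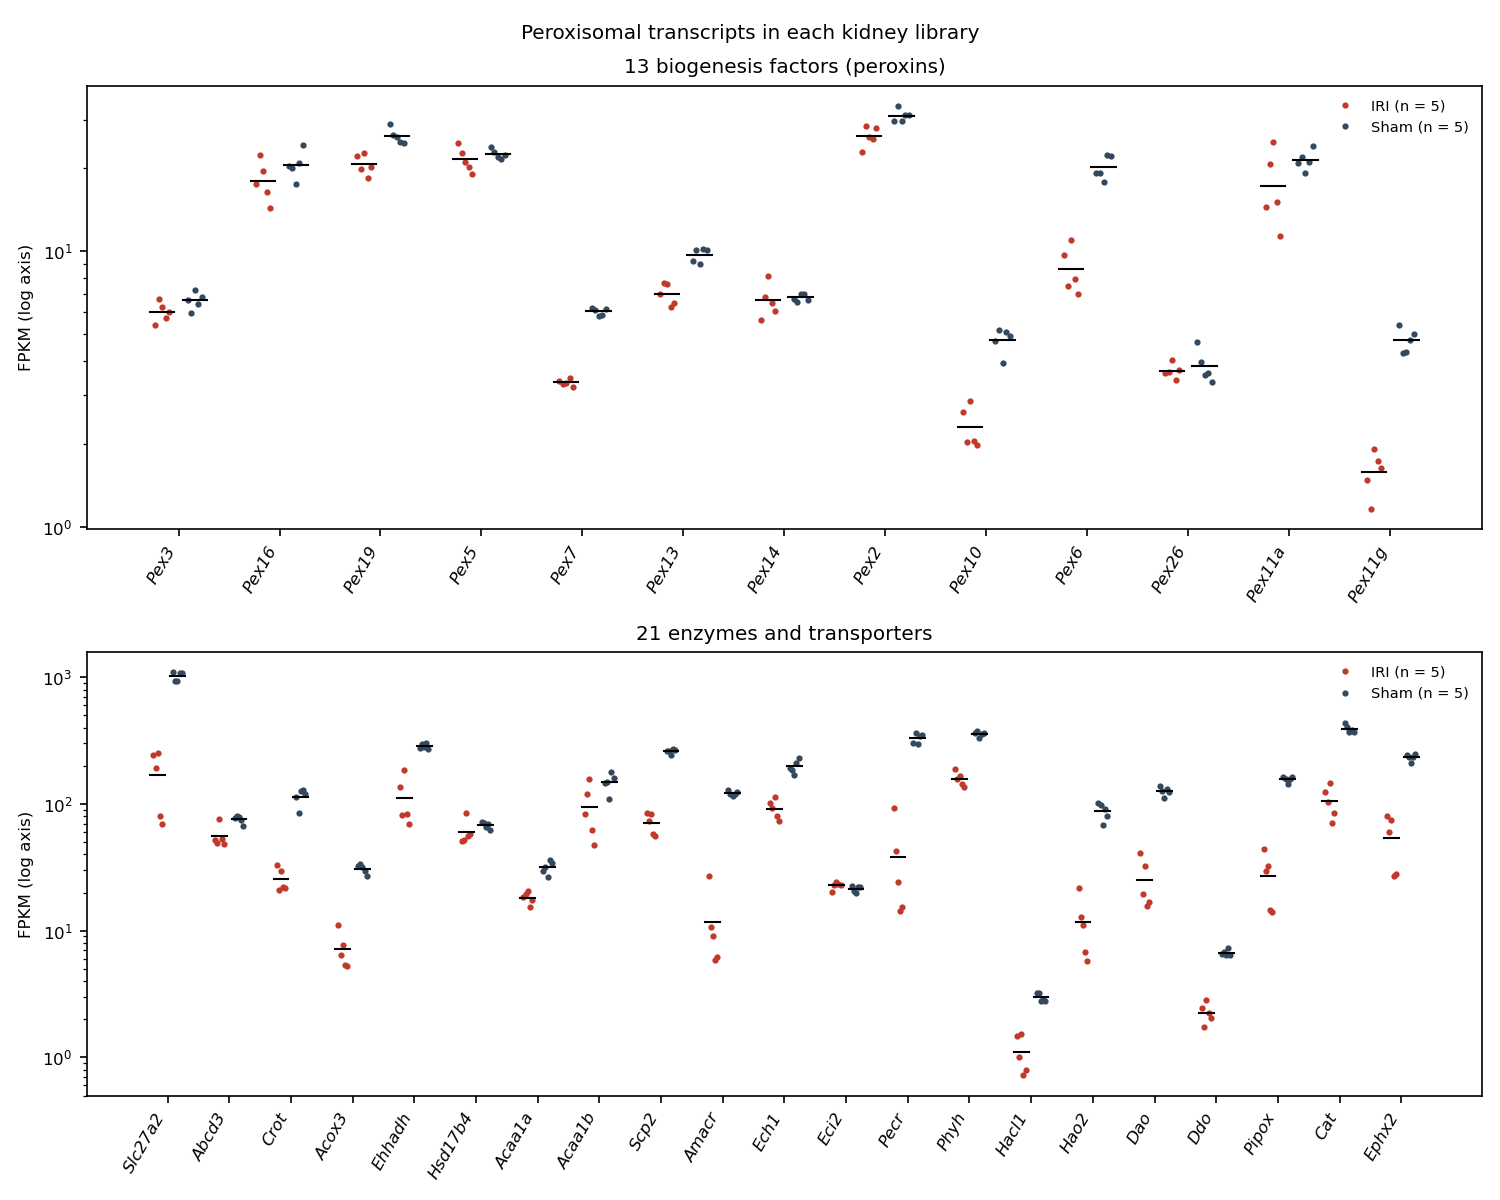
FPKM of each gene (log axis) in the 5 IRI and 5 sham libraries, with points for libraries and lines for group means, for the 13 biogenesis factors (upper panel) and 21 enzymes and transporters (lower panel). Pex5, Pex14, Pex26 and Eci2 are among the 10 genes that overlap between groups. Slc27a2, at a mean of 168 FPKM in IRI and 1024 FPKM in sham, is among the enzymes with a wide gap.

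The transcripts for enzymes and transporters were far more abundant than those for peroxins and differed more in level between the groups. Their summed level was 1461, 1171, 1533, 839 and 800 FPKM in IRI replicates 1 to 5, against 4209, 4043, 3742, 4233 and 4182 FPKM in sham replicates 1 to 5. Biogenesis factors summed to 129 to 159 FPKM in IRI and 173 to 192 FPKM in sham. In these bulk libraries, fewer cells of a type and less RNA per cell cannot be told apart. All 15 proximal tubule markers listed were lower as well (median -2.76 on the log2 scale), and their part in the changes of the peroxisomal genes was not tested.

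Genes for entry into and exit from the peroxisome summed to 139 to 359 FPKM in IRI libraries and 1091 to 1281 FPKM in sham libraries. Slc27a2, an acyl-CoA synthetase that activates very long chain fatty acids, had 245, 193, 253, 79.6 and 69.2 FPKM in IRI replicates 1 to 5, against 1091, 926, 942, 1076 and 1087 FPKM in sham replicates 1 to 5. In sham kidneys it had the highest level of the 34 genes, and in IRI replicates 4 and 5 it was at its lowest (log2 fold change -2.83 ± 0.37, edgeR adjusted p = 3.31e-05). Crot, which converts chain-shortened acyl-CoA to carnitine esters for export, averaged 25.4 ± 5.34 FPKM in IRI and 114 ± 17.8 FPKM in sham (-2.40 ± 0.18, edgeR adjusted p = 6.06e-07). Abcd3, the membrane transporter PMP70 that imports branched-chain and dicarboxylic acyl-CoA, had 52.0, 48.9, 75.7, 52.7 and 48.4 FPKM in IRI replicates 1 to 5, against 77.5, 80.6, 78.7, 75.1 and 67.4 FPKM in sham replicates 1 to 5. Only IRI replicate 3 of these IRI libraries lay within the sham range, and the decrease was much smaller than for Slc27a2 and Crot (-0.70 ± 0.14, edgeR adjusted p = 0.000674).

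Promoters of 29 of the 34 genes were matched in the RefSeq table by symbol, as 35 windows of 250 bases before to 50 bases after the gene start, since some genes have several starts. The windows and all 32851 windows of that length in the table were searched on both strands for AGGTCA, for a direct repeat of DR1 type (the hexamer 2 times with 1 base between, any base being allowed at position 4 of each copy), which can contain that hexamer, for the HNF4-type element CAAAGTCCA, which contains neither, and for the CCAAT box, the Sp1-type element GGGCGG and the TATA box TATAAA, none of which contains another of the motifs. The hexamer AGGTCA was present in 7 of the 35 windows (6 of 21 from enzymes and transporters and 1 of 14 from biogenesis factors) and in 16.3% of all windows. The direct repeat was in 0 of 35 and in 0.381% of all windows, and the HNF4-type element in 2 of 35 and in 0.475% of all windows. GGGCGG was in 22 of 35 windows and in 35.7% of all, CCAAT in 14 of 35 and in 37.4% of all, and TATAAA in 3 of 35 and in 13.6% of all. The median content of G and C was 56.3% over biogenesis factor windows, 58.0% over those of enzymes and transporters and 52.7% over all windows.

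The windows with the HNF4-type element belonged to Pipox and to 1 of the 2 starts listed for Abcd3. They are shown because Hnf4a, the nuclear receptor that binds such elements, was itself lower in IRI while these genes differed widely in their change. Binding was not measured, and a part of Hnf4a or of the element in these changes was not tested. Each sequence runs from 250 bases before the gene start through its first 30 bases in build GRCm38.p6, with the element in capitals. In Pipox the element lies on the opposite strand, starting 15 bases after the first base of the gene, and in Abcd3 on the strand of the gene, starting 13 bases after it.
Pipox, chr11:77893843-77894122, minus strand: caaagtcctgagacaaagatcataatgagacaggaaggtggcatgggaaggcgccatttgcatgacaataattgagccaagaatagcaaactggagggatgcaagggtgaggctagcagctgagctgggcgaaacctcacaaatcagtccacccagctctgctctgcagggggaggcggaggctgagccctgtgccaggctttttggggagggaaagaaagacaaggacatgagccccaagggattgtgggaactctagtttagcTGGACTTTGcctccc
Abcd3, chr3:121815273-121815552, minus strand: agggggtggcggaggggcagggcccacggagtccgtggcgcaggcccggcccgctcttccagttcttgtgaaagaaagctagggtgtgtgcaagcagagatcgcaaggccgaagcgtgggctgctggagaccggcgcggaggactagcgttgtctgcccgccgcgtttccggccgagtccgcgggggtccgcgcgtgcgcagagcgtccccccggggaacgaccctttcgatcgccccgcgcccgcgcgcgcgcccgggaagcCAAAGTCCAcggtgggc

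The 7 genes of the beta-oxidation core were all lower, over a wide range of sizes. Amacr, the racemase that prepares branched-chain acyl-CoA for oxidation, had 27.0, 10.7, 9.00, 5.83 and 6.22 FPKM in IRI replicates 1 to 5, against 129, 120, 116, 120 and 125 FPKM in sham replicates 1 to 5. IRI replicate 1 stood above the other IRI libraries and far below every sham library, and the log2 fold change of -3.59 ± 0.42 (edgeR adjusted p = 1.30e-05) became -4.23 without it. Acox3, an oxidase of branched-chain acyl-CoA, averaged 7.16 ± 2.44 FPKM in IRI and 30.9 ± 2.68 FPKM in sham (-2.34 ± 0.23, edgeR adjusted p = 3.15e-06). Scp2, whose longer product is a thiolase for branched chains, had 84.3, 73.5, 83.0, 57.9 and 56.2 FPKM in IRI replicates 1 to 5, against 264, 262, 242, 271 and 265 FPKM in sham replicates 1 to 5 (-2.12 ± 0.16, edgeR adjusted p = 4.93e-07). These genes of branched-chain oxidation showed no overlap between groups. Podn, a gene annotated on the same strand over 52607 bases shared with Scp2, had a mean count of 147 in IRI and 528 in sham, while Scp2 itself had 3970 in IRI and 14431 in sham, and 32.2% of 100-base windows of the Scp2 transcript also occur in the pseudogene Scp2-ps2.

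The bifunctional enzymes, which hydrate and dehydrogenate the acyl chain, changed unequally. Ehhadh, the L-bifunctional enzyme, had 137, 81.5, 184, 83.4 and 70.0 FPKM in IRI replicates 1 to 5, against 278, 298, 280, 305 and 273 FPKM in sham replicates 1 to 5. All IRI libraries were below the sham libraries, with IRI replicate 3 highest among them (-1.61 ± 0.26, edgeR adjusted p = 0.000150). Hsd17b4, the D-bifunctional enzyme, had 51.2, 52.0, 85.6, 55.9 and 58.3 FPKM in IRI replicates 1 to 5, against 72.6, 71.2, 66.1, 69.6 and 62.0 FPKM in sham replicates 1 to 5. Here IRI replicate 3 was above every sham library and the other IRI libraries were below them all, with a log2 fold change of -0.43 ± 0.14 (edgeR adjusted p = 0.0157) that was not called under library totals. A pseudogene on the same strand inside Hsd17b4, Cd63-ps, had 924 counts in IRI and 778 in sham, while Hsd17b4 itself had 3357 in IRI and 3702 in sham.

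The thiolases that close the cycle, Acaa1a and Acaa1b, lie near each other on chromosome 9, Acaa1a from 119168742 to 119179365 and Acaa1b from 118977091 to 118986161 (GRCm39). They share 21.6% and 22.6% of the 100-base windows of their transcripts, so reads of these copies may have been split between them and their separate values are uncertain. Acaa1b had 82.9, 121, 157, 62.0 and 47.1 FPKM in IRI replicates 1 to 5, against 146, 150, 109, 180 and 161 FPKM in sham replicates 1 to 5, with IRI replicates 2 and 3 inside the sham range (-0.92 ± 0.29, edgeR adjusted p = 0.0145). Acaa1a averaged 18.2 ± 2.00 FPKM in IRI and 31.6 ± 3.64 FPKM in sham with no overlap (-1.04 ± 0.12, edgeR adjusted p = 1.06e-05). Myd88, which overlaps Acaa1a by 1736 bases on the other strand, had a mean count of 718 in IRI and 252 in sham, while Acaa1a had 1294 in IRI and 2210 in sham.

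The 3 auxiliary genes for chains with double bonds ranged from a large decrease to no call. Pecr, a reductase of trans-enoyl-CoA, had 93.7, 42.6, 24.2, 14.2 and 15.3 FPKM in IRI replicates 1 to 5, against 304, 365, 295, 341 and 351 FPKM in sham replicates 1 to 5. It had the widest spread of the 34 genes in IRI, with a coefficient of variation of 87.2% in IRI and 9.17% in sham, and its log2 fold change of -3.32 ± 0.51 (edgeR adjusted p = 0.000106) was -4.06 without IRI replicate 1. Ech1, a dienoyl-CoA isomerase found in peroxisomes and mitochondria, averaged 92.0 ± 16 FPKM in IRI and 198 ± 24.2 FPKM in sham (-1.35 ± 0.15, edgeR adjusted p = 9.77e-06). Eci2, an enoyl-CoA isomerase, had 20.3, 23.0, 24.1, 23.2 and 23.1 FPKM in IRI replicates 1 to 5, against 22.3, 20.7, 19.8, 22.0 and 22.2 FPKM in sham replicates 1 to 5. Its log2 fold change was -0.17 ± 0.07 with TMM factors (edgeR adjusted p = 0.0601) and 0.09 with library totals (edgeR adjusted p = 0.337), so its direction depends on the scaling. It was called lower by DESeq2 (-0.19, adjusted p = 0.0173), with DESeq2 size factors in edgeR (-0.19, adjusted p = 0.0412), and without sham replicate 3 (-0.19, edgeR adjusted p = 0.0402) or IRI replicate 3 (-0.19, edgeR adjusted p = 0.0463).

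Alpha-oxidation, which removes a carbon from fatty acids such as phytanic acid, was represented by Phyh and Hacl1. Phyh, the hydroxylase that is deficient in human Refsum disease, had 189, 158, 166, 143 and 136 FPKM in IRI replicates 1 to 5, against 361, 373, 331, 354 and 362 FPKM in sham replicates 1 to 5 (-1.41 ± 0.13, edgeR adjusted p = 2.12e-06). Hacl1, the lyase of the next step, averaged 1.10 ± 0.378 FPKM in IRI and 2.97 ± 0.224 FPKM in sham (-1.67 ± 0.23, edgeR adjusted p = 4.37e-05). Both had separate groups. Hacl1 was the only one of the 34 genes under 1 FPKM in any library, which was the case in IRI replicates 4 and 5, and it passed the filter on low values through its sham level. A predicted gene, Gm49387, overlaps Hacl1 on the same strand over 42149 bases, holds 52.7% of the 100-base windows of its transcript and was listed at 0 counts in all libraries.

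All 5 genes of oxidases and catalase were lower with no overlap, the median being -2.57 on the log2 scale. Hao2, the hydroxyacid oxidase of kidney peroxisomes, had 21.8, 12.8, 11.1, 6.81 and 5.80 FPKM in IRI replicates 1 to 5, against 102, 97.9, 68.0, 90.9 and 80.4 FPKM in sham replicates 1 to 5 (-3.14 ± 0.35, edgeR adjusted p = 8.80e-06). Pipox, an oxidase of pipecolic acid and sarcosine whose promoter is printed above, had 44.5, 29.6, 32.6, 14.6 and 14.1 FPKM in IRI replicates 1 to 5, against 165, 158, 145, 159 and 163 FPKM in sham replicates 1 to 5 (-2.77 ± 0.32, edgeR adjusted p = 1.10e-05). In both genes IRI replicate 1 was the highest of the IRI libraries and IRI replicates 4 and 5 were the lowest. Dao, the D-amino-acid oxidase, averaged 25.0 ± 11.2 FPKM in IRI and 127 ± 9.75 FPKM in sham (-2.57 ± 0.28, edgeR adjusted p = 8.53e-06). Ddo, which oxidises D-aspartate, averaged 2.26 ± 0.420 FPKM in IRI and 6.69 ± 0.386 FPKM in sham (-1.81 ± 0.13, edgeR adjusted p = 4.92e-07).

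Cat, the catalase that removes the hydrogen peroxide these oxidases make, had 123, 103, 146, 71.1 and 85.6 FPKM in IRI replicates 1 to 5, against 438, 408, 367, 386 and 370 FPKM in sham replicates 1 to 5. The highest IRI library was well below the lowest sham library (-2.14 ± 0.20, edgeR adjusted p = 2.29e-06). Ephx2, the soluble epoxide hydrolase of cytosol and peroxisomes, averaged 54.2 ± 25.6 FPKM in IRI and 235 ± 15.3 FPKM in sham (-2.35 ± 0.32, edgeR adjusted p = 4.39e-05). In the deposited coordinates, Cat lies on chromosome 2 from 103284194 to 103315505, Hao2 on chromosome 3 from 98781837 to 98800555, Amacr on chromosome 15 from 10981842 to 10996712 and Slc27a2 on chromosome 2 from 126394327 to 126430163.

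IRI libraries differed among themselves, and they did so more for enzymes than for biogenesis factors. The coefficient of variation had a median of 34.1% in IRI and 7.50% in sham over enzymes and transporters, 10.1% in IRI and 7.20% in sham over biogenesis factors, and 16.3% in IRI and 13.1% in sham over all genes tested. It was larger in IRI for 20 of 21 enzymes and transporters, 12 of 13 biogenesis factors and 62.2% of all genes tested. Of the 21 enzymes and transporters, 17 had their lowest IRI value in replicate 4 or 5, and all 21 had their highest IRI value in replicate 1 or 3. On a log2 scale against the sham mean, the median over enzymes and transporters was -1.47, -1.93, -1.43, -2.17 and -2.20 in IRI replicates 1 to 5. The median over proximal tubule markers was -1.46, -2.69, -2.63, -4.01 and -3.66 in the same libraries, again lowest in replicates 4 and 5. The median over biogenesis factors was -0.43, -0.12, -0.19, -0.50 and -0.51. Whether the content of proximal tubule RNA had a part in this order was not tested. Without IRI replicate 1, 13 biogenesis factors and 20 enzymes and transporters were called lower, with medians of -0.53 and -2.23 on the log2 scale (edgeR).

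**Figure D3:**
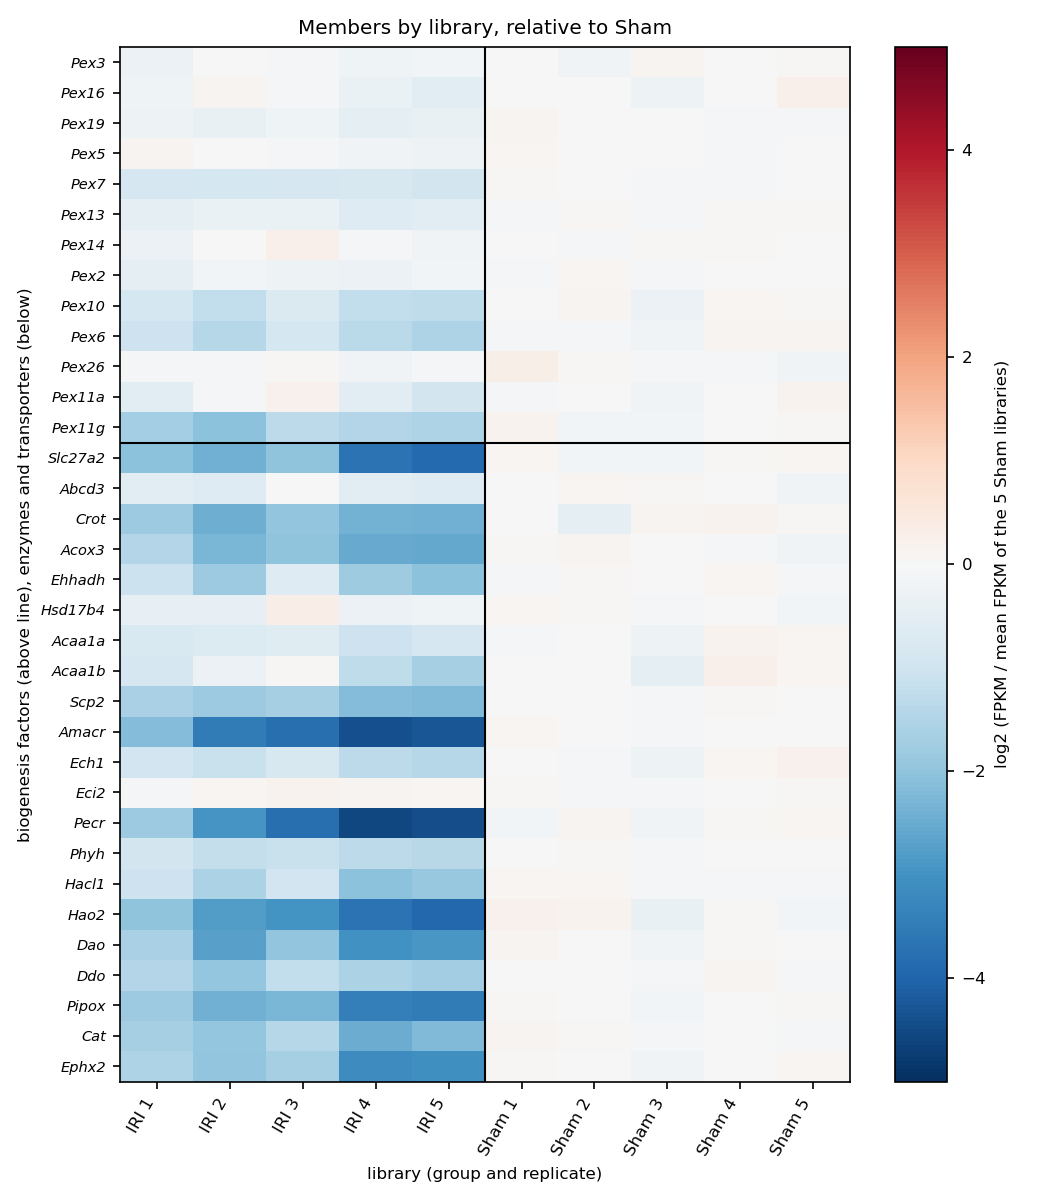
Log2 ratio of FPKM to the mean of the 5 sham libraries (colour) for the 34 genes (rows, biogenesis factors above the line) in the IRI and sham libraries (columns). Enzymes and transporters are deeper blue in IRI replicates 4 and 5, with medians of -2.17 and -2.20, than in IRI replicates 1 and 3, with -1.47 and -1.43.

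Ratios of related genes within a library do not depend on the scaling of libraries, and 7 pairs were compared by permuting the libraries between groups (exact test, two-sided, all 252 assignments, n = 5 each), with p-values adjusted over the 7 pairs, of which 5 are given here. The smallest p this design allows is 0.00794, and 4 of the 5 pairs reached it, at an adjusted exact p of 0.0111. The pairs were chosen with earlier results of these data known, and the adjustment does not account for that choice. The log2 count ratio of Pex11a to Pex11g averaged 3.31 ± 0.53 in IRI and 2.08 ± 0.16 in sham (SD, n = 5 each; difference 1.23, adjusted exact p = 0.0111), higher in 5 of 5 IRI libraries than in any sham library. That of Pex7 to Pex5 averaged -1.07 ± 0.14 in IRI and -0.28 ± 0.04 in sham (difference -0.78, adjusted exact p = 0.0111). Relative to the other receptor, the receptor for the N-terminal signal was thus lower in every IRI library.

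Among enzymes, the ratio of Ehhadh to Hsd17b4 averaged 0.61 ± 0.46 in IRI and 1.88 ± 0.08 in sham on the log2 scale (SD, n = 5 each; difference -1.27, adjusted exact p = 0.0111). For Hao2 to Cat the values were -3.65 ± 0.56 in IRI and -2.53 ± 0.15 in sham (difference -1.12, adjusted exact p = 0.0111). In both pairs every IRI library lay below every sham library.

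The remaining pair overlapped between groups. The log2 ratio of Acaa1b to Acaa1a was 0.99, 1.47, 1.76, 0.85 and 0.26 in IRI replicates 1 to 5, against 1.12, 1.08, 0.86, 1.16 and 1.07 in sham replicates 1 to 5. Its means were 1.07 in IRI and 1.06 in sham (adjusted exact p = 0.984), with an SD of 0.58 in IRI and 0.12 in sham, so that the IRI libraries spread to both sides of the sham libraries.

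**Figure D4:**
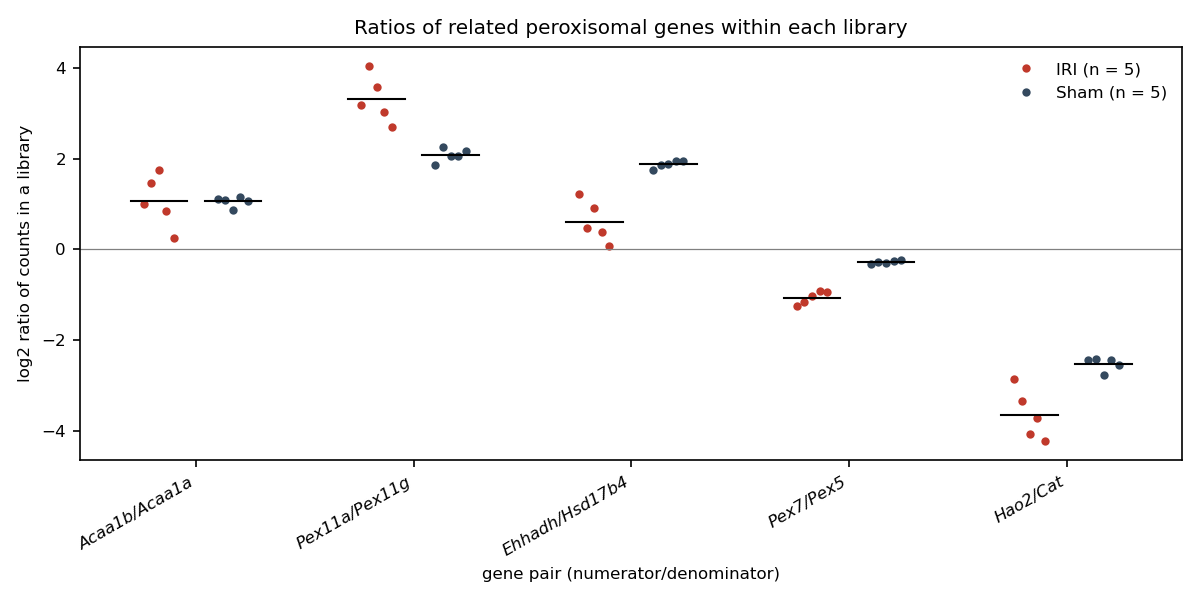
Log2 ratio of counts (y axis) for 5 gene pairs in each of the 5 IRI and 5 sham libraries, with lines for group means. The groups are separate for 4 pairs and overlap for Acaa1b/Acaa1a, with means of 1.07 in IRI and 1.06 in sham.

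Other genes linked to the organelle were counted by hand-written lists. The location of each listed protein was not checked, and some may lie mainly in other compartments. The counts are to be read against the 32.4% of all genes tested that were called lower and the 34.5% called higher. Of 5 tested genes of division shared with mitochondria, 1 was lower, Fis1 (-0.47), and 1 higher, Dnm1l (0.20), with Mff (0.04) and Mief1 (0.19) among the uncalled (edgeR adjusted p of 0.0138 and 0.0409 for the called genes). In FPKM, which rests on library totals, every IRI library was above every sham library for Mff (means of 11.5 FPKM in IRI and 9.40 FPKM in sham) and for Mief1 (4.87 FPKM in IRI and 3.58 FPKM in sham).

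Of 15 tested further genes of peroxisomal fatty acid oxidation, 10 were lower, 1 was higher and 4 were not called (32.4% lower and 34.5% higher over all genes tested), and the median was -0.77 on the log2 scale. Acox2, an oxidase of bile acid intermediates and branched chains, had the lowest log2 fold change of these (-3.22 ± 0.24, edgeR adjusted p = 5.87e-07). It averaged 3.89 ± 1.29 FPKM in IRI and 30.7 ± 5.37 FPKM in sham (SD, n = 5 each). Nudt19, a hydrolase of coenzyme A (-2.54), Acot3 (-1.84) and Acad11 (-1.77) were also lower, while Slc27a4 was the higher gene (0.57, edgeR adjusted p = 8.89e-05) and Acsl1 (-0.03) and Hsdl2 (-0.02) were among those not called, their sign lying within the scaling shift of 0.25.

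Of 10 tested genes listed as membrane proteins, 9 were lower (32.4% of all genes tested) and 1, Atad1 (0.18), was not called. The FPKM of Atad1 was nevertheless higher in every IRI library than in any sham library. The lowest were Pxmp2, a channel of the peroxisomal membrane (-2.83 ± 0.25, edgeR adjusted p = 1.57e-06), Acbd4 (-1.83), Pxmp4 (-1.25) and Mpv17 (-1.05). All 4 tested genes of ether lipid synthesis were lower: Agps, which forms the ether bond (-1.95 ± 0.16, edgeR adjusted p = 8.12e-07), Far1, which supplies the fatty alcohol (-1.53), Tmem189, a desaturase that makes plasmalogens (-0.97), and Gnpat, which starts the pathway (-0.80). Both proteases of the matrix, Lonp2 (-1.17) and Tysnd1 (-1.25), were lower.

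Among 7 tested further oxidases and redox enzymes, 5 were lower and 2 higher, against 32.4% lower and 34.5% higher over all genes tested. Xdh, a purine oxidase, averaged 11.1 ± 2.32 FPKM in IRI and 2.59 ± 0.267 FPKM in sham (SD, n = 5 each; 1.85 ± 0.16, edgeR adjusted p = 1.70e-06), and the polyamine oxidase Paox was also higher (0.71, edgeR adjusted p = 0.00280). The glutathione transferase Gstk1 (-2.11), the hydrolase Nudt12 (-2.03) and the carbonyl reductase Dhrs4 (-1.72) were among the lower genes (edgeR adjusted p of 4.43e-07 to 9.89e-06). Hao1, Uox and Agxt were below the filter.

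Regulators of peroxisomal genes gave 5 lower and 5 uncalled genes of 10 tested, against 32.4% lower over all genes tested. Hnf4a, a nuclear receptor of proximal tubule and liver, averaged 34.8 ± 23.2 FPKM in IRI and 136 ± 16.8 FPKM in sham (SD, n = 5 each; -2.19 ± 0.40, edgeR adjusted p = 0.000437), without overlap. Ppard (-1.46), Esrra (-0.94) and Rxra, the partner of PPARs (-0.80), were also lower (edgeR adjusted p of 1.63e-05 to 0.000133). Ppara, the receptor that induces peroxisomal oxidation in rodents, averaged 4.23 ± 2.03 FPKM in IRI and 5.54 ± 2.50 FPKM in sham and was not called (-0.63 ± 0.37, edgeR adjusted p = 0.149).

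Markers of other cell types moved in several directions beside these changes, while 32.4% of all genes tested were called lower and 34.5% higher. All 15 proximal tubule markers were lower, with log2 fold changes of -5.67 to -1.46 and the organic anion transporters Slc22a13 and Slc22a7 at the low end. Thick ascending limb markers gave 2 higher and 4 lower of 6 and summed to 1417 to 2620 FPKM in IRI and 716 to 1628 FPKM in sham. Most of that sum was Umod, at means of 1867 FPKM in IRI and 903 FPKM in sham. Distal and connecting tubule markers gave 0 higher and 4 lower of 5 (97.2 to 161 FPKM in IRI and 183 to 290 FPKM in sham). Collecting duct markers gave 1 higher and 2 lower of 7 tested (281 to 637 FPKM in IRI and 207 to 509 FPKM in sham). The largest part of that sum was Aqp2, which was not called (means of 279 FPKM in IRI and 156 FPKM in sham). Endothelial markers had 4 of 7 higher and podocyte markers 4 of 5 higher, with none lower. Neutrophil markers summed to 23.7 to 108 FPKM in IRI and 1.08 to 3.34 FPKM in sham, with all 5 tested members higher. All of these but S100a9 were under 1 FPKM in every sham library. Those genes could pass the filter on low values only by being higher in IRI, and the other listed members missed it. Monocyte and macrophage markers gave 3 higher and 1 lower of 7 tested (88.0 to 145 FPKM in IRI and 45.3 to 75.5 FPKM in sham). Cd14 and Cd68, at means of 30.3 and 22.0 FPKM in IRI and 2.50 and 2.48 FPKM in sham, were higher. So was Itgam, which passed the filter only through its IRI level, while Csf1r was lower (3.07 FPKM in IRI and 11.1 FPKM in sham). Fibroblast and pericyte markers gave 3 higher and 1 lower of 8 (82.0 to 321 FPKM in IRI and 55.5 to 76.7 FPKM in sham). Most of that sum in IRI was Acta2 and Tagln, at means of 98.7 and 53.9 FPKM in IRI and 21.1 and 8.41 FPKM in sham. Pdgfrb was also higher and Dcn was lower. No listed marker was at 0 counts in all libraries, and the part of cell composition in the peroxisomal changes was not tested.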

How the data were processed

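For each of the 10 libraries the authors deposited counts per gene, as whole numbers, and FPKM per gene in a single table with exonic lengths and coordinates. Poly(A) RNA was selected from 1 µg of total RNA and read as pairs of 150 bases, per the labels' protocols. The submitters' processing notes name HTSeq 0.6.1, HISAT2 2.0.1, Cutadapt 1.9.1 and the build GRCm39 but no roles. No strand setting is given in the sources used here, and reads of a gene and its antisense partner may be mixed. The deposited FPKM values could be computed from the counts, exonic lengths and library totals (100% of values, tolerance 0.005 units or 0.1%).

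Genes were tested where 5 or more libraries reached 1 FPKM (13324 genes, 98.9% to 99.3% of counts). Counts were fitted with edgeR 4.0.16 (R 4.3.3, quasi-likelihood test, TMM factors), with Benjamini-Hochberg adjustment over all genes tested. Genes with adjusted p under 0.05 were called. Each standard error was derived from the fold change and its F statistic. Ratios of gene pairs used counts plus 0.5. The 34 genes, the lists and the pairs were chosen with earlier results of these data known. Named genes are the 34, both genes of each pair and, per list, up to 4 called and 2 uncalled genes, called ones by largest change. Slc27a4 and Paox, higher genes of lists that were mostly lower, were named after their values were seen. Symbols were found for 52083 genes. Protein sequences and their targeting signals were not analysed here, and 2 of the 7 pairs and 1 list of other peroxins are not reported here. Alternatives were DESeq2 1.42.0, limma 3.58.1 on log2(FPKM + 1) or log2(FPKM + 0.1), other scalings and filters, a replicate block and leaving out each library.

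A simulation of 13324 genes gave a known change to 50 genes at each size of change. Recovery by edgeR was 54% for 1.5-fold, 88% for 2-fold, 100% for 4-fold and 94% for 8-fold changes. False positives made up 7.18% of the called genes. Far fewer genes were changed there than the 66.9% called between IRI and sham libraries. These rates therefore cannot be taken as the power or error rate of that comparison. No library was a copy of another: within groups, chi-square per degree of freedom between libraries was 7.96 to 88.9.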

Additional observations from a re-analysis of the deposited data

Results flagged for a closer look

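A library was far from the other 4 of its group, by Dixon's criterion at the 95% level, in 5 of 82 groups of values examined, where chance gives about 1 in 20. In IRI replicate 3, Abcd3 was at 75.7 FPKM and Hsd17b4 at 85.6 FPKM, both above the other IRI libraries. In IRI replicate 1, Amacr was at 27.0 FPKM, above the other IRI libraries, and Eci2 at 20.3 FPKM, below them. In sham replicate 3, the log2 ratio of Acaa1b to Acaa1a was 0.86, below the other sham libraries.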

How the results depend on the processing

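Over the 34 genes, 578 of the values under alternatives kept their direction and side of the threshold, 27 kept direction but were no longer called, 4 were newly called and 3 reversed. The reversed values were those of Eci2, at 0.09 with library totals, 0.08 by limma on log2(FPKM + 1) and 0.09 by limma on log2(FPKM + 0.1). With library totals, limma on log2(FPKM + 1) and limma on log2(FPKM + 0.1), in that order, biogenesis factors called lower numbered 7, 7 and 7, their median was -0.31, -0.32 and -0.34, and the median of all genes was 0.30, 0.24 and 0.29. All of these are scaled by library totals. Without a filter, Pex14 and Pex26 were not called. Leaving out each library gave 12 to 13 biogenesis factors and 20 to 21 enzymes and transporters called lower. It gave log2 ratio differences of -0.17 to 0.21 for Acaa1b/Acaa1a, the only one of the 5 pairs given here whose direction or call changed.

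The labels do not say whether the replicate numbers pair the libraries. Same-numbered libraries had correlations of deviations from group means of 0.0575, -0.132, -0.246, 0.0125 and -0.131. No IRI library correlated best with the sham library of its own number. With 5 libraries per group, these correlations cannot show that a weak pairing is absent. With a replicate block, edgeR called 4221 genes higher and 4097 lower, and 13 biogenesis factors and 20 enzymes and transporters lower. As sign flips over 5 pairs, whose smallest p is 0.0625, the block left the ratio differences at 1.23 for Pex11a/Pex11g, -1.27 for Ehhadh/Hsd17b4, -0.78 for Pex7/Pex5 and -1.12 for Hao2/Cat, with an adjusted exact p of 0.0729 that this design cannot bring under the threshold.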

Other observations

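Below the filter on low values, 2 oxidase genes of the organelle were counted in every IRI library and in no sham library. Uox, the urate oxidase of rodent liver peroxisomes, had 6, 8, 23, 22 and 11 counts in IRI replicates 1 to 5, against 0 counts in all 5 sham libraries, which makes it at least 23.1-fold higher when 3 counts are taken as the limit for the whole sham group. Hao1, a hydroxyacid oxidase best known from liver, had 11, 16, 3, 10 and 12 counts in IRI replicates 1 to 5, against 0 counts in all 5 sham libraries, at least 17.1-fold higher by the same limit. In the edgeR fit with no filter both were called higher (adjusted p = 5.67e-05 for Uox and 0.000217 for Hao1). Agxt, the peroxisomal transaminase of glyoxylate, had 2 counts over the IRI group and 0 over the sham group. Far2, a fatty alcohol-forming reductase, had 641 counts over the IRI group and 360 over the sham group (no filter, log2 fold change 0.57 ± 0.20, edgeR adjusted p = 0.0326), whereas Far1 was lower. These genes were chosen after their values were seen, and the fold limits cover counting error only, not the spread between libraries.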
